A study of Mus musculus with 16 samples.

Results

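The knockout effect shared by lungs and heart was taken as the difference between NM1 KO and WT mice in transcript signals averaged over both organs of each mouse. It rests on 12 of the 16 arrays of the series, the lungs and heart arrays of 3 KO mice (1602, 1603 and 1586) and of 3 WT mice (1592, 1624 and 1593), paired through the mouse numbers that the titles carry. The remaining 4 arrays, skin fibroblasts labelled KO (1584 and 1550) and WT (1571 and 1623), played no part in choosing or averaging. The series design speaks of fibroblasts from each mouse, but their titles carry other numbers than the organs, so they were read as samples of other mice, which remains uncertain. Of 45037 probe sets, 23332 had a mean over the 12 arrays above 3.79 log2, the median of the deposited table, and were compared. A total of 14184 of them (60.8%) had the same sign in lungs and in heart, 3395 higher and 10789 lower in KO. The labels give genotype and tissue only, and the sources used here give no strain, age, sex or account of what was deleted. Mice were counted as separate animals by their numbers, and the p-values measure the spread between these mice.

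NM1, nuclear myosin 1, is an isoform of the unconventional myosin encoded by Myo1c, an actin-based motor that also has cytoplasmic isoforms. The nuclear form is known for its part in transcription by RNA polymerase I and for its place in the B-WICH chromatin remodelling complex. Lungs and heart were sampled because NM1 is abundant in them. The comparison asks which transcripts depended on genotype in the same way in both organs.

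The labelled tissues carried their markers. Sftpc, the surfactant protein gene of alveolar type II cells, lay at 13.9 to 14.1 log2 in lungs and at most at 6.22 in heart, while Myl2, the ventricular myosin light chain gene, lay at 13.8 to 14.0 in heart and at most at 4.15 in lungs. Other heart muscle genes were detected in lungs too, with Tnni3, the cardiac troponin I gene, at 4.80 to 10.2 and the atrial light chain genes Myl7 at 8.02 to 12.04 and Myl4 at 6.24 to 10.98. Thy1, a surface protein of fibroblasts, lay at 10.98 to 11.43 in the fibroblast samples. On all 16 arrays Xist stayed at or below 3.94 and the Y-linked gene Eif2s3y at or above 7.27, so the samples did not differ in this respect. Among hearts, KO 1602 was unlike the rest, since its upper quartile was 5.63 log2 and that of the other 5 hearts was 6.17 to 6.31. Over the 23332 probe sets the median change lay at -0.10 log2 (-0.06 in lungs and -0.15 in heart), at -0.02 after quantile normalization and at -0.04 without that array, and gene list values below are read against it.

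Myo1c was lower in KO mice in lungs and in heart. The mean of its 4 probe sets was 7.10, 6.55 and 6.31 log2 in KO lungs, against 7.55, 8.10 and 8.35 in WT lungs. In heart it was 6.00, 5.98 and 5.92 in KO mice, against 6.73, 6.83 and 6.60 in WT mice. No KO value reached the lowest WT value of the same organ. Averaged by mouse, KO mice had 6.31 ± 0.22 and WT mice 7.36 ± 0.19 (SD, n = 3 each), a difference of -1.05 log2 or 2.07-fold. The exact permutation p, taken in both directions, was 0.1, the smallest that 3 against 3 mice can give. In the fit over all probe sets, 1419649_PM_s_at had a change of -0.99 (SE 0.13) with an adjusted p of 0.261 by limma, which became 0.0291 with the mouse as a block. The probe set 1449550_PM_at had -1.23 in lungs and -0.17 in heart, where its groups overlapped (adjusted p of the organ difference 0.72 by limma). The sources used here do not say which Myo1c isoforms each probe set reads, so a remaining signal of 5.92 log2 or more cannot be assigned to NM1 or to the cytoplasmic forms.

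Only 2 of the 23332 probe sets (0.00857%) passed an adjusted p of 0.05 by limma, 1 higher (0.00429%) and 1 lower (0.00429%) in KO, and both had the same sign in lungs and heart. A probe set of Xaf1 rose and a probe set without an annotated gene, 1434914_PM_at, fell. At an unadjusted p under 0.05 there were 2615 probe sets (11.2%), against 1167 that chance alone would give, and 271 of them (1.16%) were higher and 2344 (10%) lower in KO. Counting 1 probe set per gene from this fit, the split among 10814 genes was 84 higher and 1140 lower. After quantile normalization it was 249 higher and 638 lower, counted by gene in the same way. Over all probe sets, 2058 of 23324 had an unadjusted p under 0.05 after quantile normalization. Without WT 1593, with 1 mouse fewer, it was 1110 of 23330, below the 1167 that chance alone would give. The same 2 probe sets were the calls after quantile normalization, after centring each array on its median, without the filter and with the filter applied in each organ. With the mouse as a random block over the 12 arrays 12 probe sets were called, 5 higher and 7 lower. The blocked values are given beside the genes whose call they change. That fit estimated a correlation of only 0.0118 between the organs of a mouse, so it counts them nearly as separate replicates. Without a block 12 probe sets were called as well, and the blocked p-values are close to those of 12 separate arrays.

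**Figure D1:**
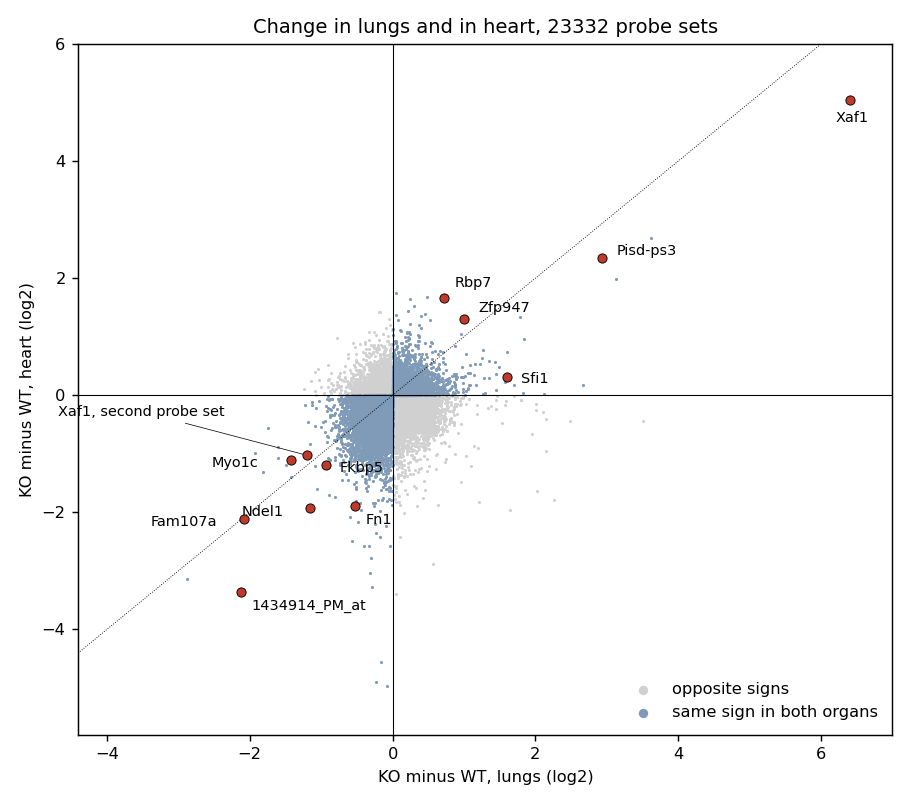
Change in lungs (x axis, KO minus WT, log2) against change in heart (y axis, log2) for the 23332 probe sets compared, with those of the same sign in both organs in blue, opposite signs in grey and named probe sets in red. Xaf1 lies alone at 6.41 and 5.04, the 1434914_PM_at probe set lies at -2.12 and -3.36, and the dotted line marks equal change in both organs.

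Xaf1, an interferon-inducible gene for a protein that binds the apoptosis inhibitor XIAP, gave the largest change. Its probe set 1443621_PM_at read 9.78, 9.53 and 9.25 log2 in KO lungs, against 2.81, 3.10 and 3.41 in WT lungs. In heart it read 8.39, 8.64 and 8.29 in KO mice, against 3.50, 3.58 and 3.12 in WT mice. Every WT array of these organs lay below the filter value and every KO array far above it. By mouse the means were 8.98 ± 0.18 in KO and 3.25 ± 0.09 in WT (SD, n = 3 each), a change of 5.73 (SE 0.13) with an adjusted p of 5.83e-06 by limma. Since the WT signal lies below the filter value, the size in folds is uncertain. The change stayed between 5.68 and 5.83 in 16 alternatives and was called in each of them.

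The second Xaf1 probe set, 1443698_PM_at, went the other way in the same mice. It read 6.45, 5.98 and 5.26 log2 in KO lungs, against 6.58, 7.14 and 7.53 in WT lungs. Heart values were 5.15, 5.46 and 5.54 in KO mice, against 6.45, 6.53 and 6.25 in WT mice. The groups did not overlap in either organ, and the change by mouse was -1.11 (SE 0.16, adjusted p = 0.264 by limma), so the 2 probe sets of Xaf1 disagree in direction. The sources used here do not say which transcripts each of them reads, and the direction of the gene as a whole cannot be stated.

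In fibroblasts the Xaf1 signal did not follow genotype alone. The rising probe set read 8.67 and 8.91 log2 in KO samples, against 8.63 in WT 1571 and 3.54 in WT 1623. The WT 1571 sample thus sat beside the KO samples, while WT 1623 lay in the range of the WT organs, and the cause was not tested. The other probe set read 6.50 and 6.67 in KO fibroblasts, against 7.78 and 7.69 in WT fibroblasts. Myo1c was high in both WT samples, with a 4-probe-set mean of 6.26 and 6.24 in KO samples, against 7.52 in WT 1571 and 7.81 in WT 1623.

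The promoter window of Xaf1 is shown because this gene carries the largest change. It comes from RefSeq annotation of GRCm38.p6, chr11:72301379-72301678 on the plus strand, with 250 bases before and 50 after the annotated start, and the capitals mark a pair of GAAA repeats spaced by 1 base (GAAANGAAA), a close relative of the motif bound by interferon regulatory factors.
Xaf1 promoter: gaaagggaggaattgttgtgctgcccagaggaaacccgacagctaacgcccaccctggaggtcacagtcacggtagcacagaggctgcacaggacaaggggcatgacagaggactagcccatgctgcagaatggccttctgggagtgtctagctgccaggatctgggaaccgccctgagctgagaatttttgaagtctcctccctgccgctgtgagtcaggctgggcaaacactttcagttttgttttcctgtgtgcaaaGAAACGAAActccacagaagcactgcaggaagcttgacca
This spacing was searched after the window had been read. On either strand it occurs in 3.17% of 32851 such windows, and the usual spacing of 2 bases, found in 3.44% of them, is not in this window.

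The called probe set 1434914_PM_at was lower in every KO mouse. It read 5.95, 5.38 and 5.34 log2 in KO lungs, against 7.27, 7.86 and 7.90 in WT lungs. In heart the signal was 3.03, 3.20 and 3.32 in KO mice, below the filter value, against 6.32, 6.67 and 6.62 in WT mice. By mouse the means were 4.37 ± 0.10 in KO and 7.11 ± 0.27 in WT (SD, n = 3 each), a change of -2.74 (SE 0.16, adjusted p = 0.00275 by limma). The change lay between -2.90 and -2.63 in 16 alternatives and was called in each of them. In fibroblasts the probe set read 3.31 and 4.20 in KO samples, against 4.21 and 3.58 in WT samples, near the filter value in all 4. The annotation used here names no gene for it.

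**Figure D2:**
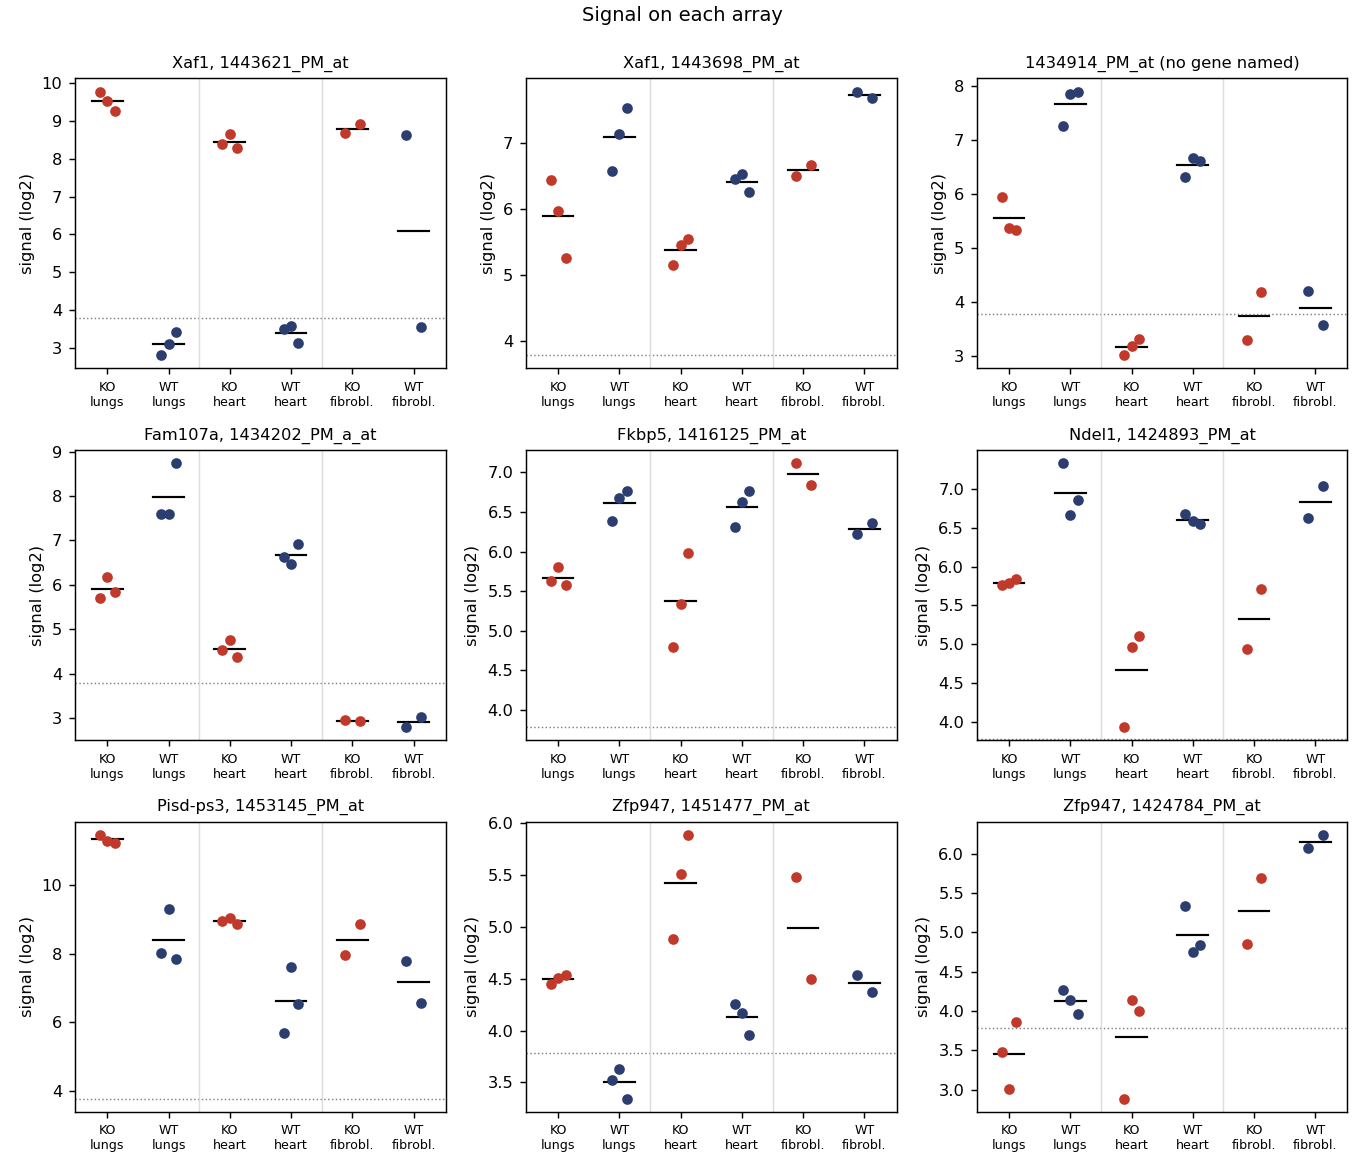
Signal (log2) of 9 probe sets on each array, with KO (red) left of WT (blue) in lungs, heart and fibroblasts, the group mean as a black bar and the filter value of 3.79 as a dotted line. KO and WT do not overlap in lungs or in heart in any panel, and in fibroblasts the WT group of Xaf1 1443621_PM_at is split between 8.63 and 3.54.

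To describe genes beyond the calls, probe sets were counted whose 3 KO and 3 WT values did not overlap in lungs and did not overlap in heart, in the same direction. There were 352 of them (1.51%), 52 higher (0.223%) and 300 lower (1.29%) in KO, in 256 distinct genes. In opposite directions there were 97 (0.416%). Within lungs alone 11.4% of probe sets did not overlap, and within heart alone 17.3%. The 24 genes named from these by smallest p, Myo1c and Xaf1 included, comprised 5 higher and 19 lower in KO by their leading probe set. With Xaf1 and Zfp947 set aside, since their probe sets opposed each other, 22 genes were left, 3 higher and 19 lower. Apart from Xaf1 none was called by limma on the mouse means.

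Fam107a and Fkbp5 were the clearest lower genes with a shared known regulator, the glucocorticoid receptor. Fam107a, a glucocorticoid-induced gene for an actin-bundling protein, read 5.70, 6.17 and 5.83 log2 in KO lungs, against 7.60, 7.59 and 8.73 in WT lungs (1434202_PM_a_at). The heart arrays gave 4.54, 4.77 and 4.37 in KO mice, against 6.63, 6.47 and 6.93 in WT mice. Every KO value lay below the lowest WT value of its organ. The change by mouse was -2.10 (SE 0.23) or 4.28-fold, nearly equal in lungs (-2.08) and heart (-2.12), with an adjusted p of 0.182 by limma that became 0.000706 with the mouse as a block. The second probe set that passed the filter, 1434203_PM_at, had -1.34, with an adjusted p of 0.411 that became 0.0494 with the block, and the third lay below the filter. In fibroblasts Fam107a was at 2.96 and 2.93 in KO samples, against 2.81 and 3.04 in WT samples, all below the filter value.

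Fkbp5, a co-chaperone that restrains the glucocorticoid receptor and is itself induced by it, read 5.63, 5.80 and 5.58 log2 in KO lungs, against 6.38, 6.68 and 6.76 in WT lungs. In heart it read 4.80, 5.34 and 5.98 in KO mice, against 6.31, 6.63 and 6.77 in WT mice. The groups did not overlap in either organ, and the change by mouse was -1.07 (SE 0.18, adjusted p = 0.411 by limma). In fibroblasts the order was the opposite, with 7.11 and 6.84 in KO samples against 6.22 and 6.36 in WT samples (0.69, adjusted p = 1 by limma). The difference between the fibroblast and the organ changes was tested over all probe sets, and 0 of 23332 (0%) were called.

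The Fam107a promoter window is shown as the member of this group with the largest change. RefSeq lists 3 windows for Fam107a on GRCm38.p6, and the one given here is chr14:8309730-8310029 on the minus strand, where the capitals mark a relaxed form of the palindrome bound by the glucocorticoid receptor (GNACA, 3 bases, then TGTNC), which was chosen after the window had been read.
Fam107a promoter: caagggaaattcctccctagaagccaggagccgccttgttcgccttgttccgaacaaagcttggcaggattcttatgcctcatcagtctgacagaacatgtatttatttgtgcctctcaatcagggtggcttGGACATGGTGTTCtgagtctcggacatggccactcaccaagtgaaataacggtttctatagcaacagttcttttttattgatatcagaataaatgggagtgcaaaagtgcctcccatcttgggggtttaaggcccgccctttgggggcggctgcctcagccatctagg
On either strand this form is found in 0.475% of the 32851 windows, and among the 17 named genes that have windows only in those of Fam107a. There it is 1 site, shared by 2 windows whose starts nearly coincide, and the window of the other Fam107a start, chr14:8317558-8317857, does not hold it. The full palindrome (AGAACA, 3 bases, then TGTTCT), found in 0.00913% of all windows, is in none of theirs, and no form of it was found in the Fkbp5 window.

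A longer list of 22 glucocorticoid-responsive genes was described with 1 probe set per gene, that with the highest mean. Of the 20 that passed the filter, 20 were lower in KO on the mean of both organs and 15 were lower in lungs and in heart, against 7915 lower and 5495 lower in both organs among 10814 genes. The median was -0.40 log2 (-0.36 in lungs and -0.47 in heart), beside -0.12 for all genes. An unadjusted p under 0.05 was reached by 9 of the 20 (45.0%), beside 10.5% of all genes, and 0 were called by limma. Besides Fam107a and Fkbp5, Ddit4, a stress-induced inhibitor of mTOR signalling, was separated in both organs, at -0.67 in each. Named after their values were seen, Tsc22d3, the glucocorticoid-induced leucine zipper gene, had -0.50 and the NF-kappaB inhibitor gene Nfkbia had -0.45. Without KO 1602, 16 of the 20 were lower. Without WT 1593 the count at an unadjusted p under 0.05 was 4 (20.0%), beside 4.18% of all genes. In fibroblasts the median of the same genes was -0.09.

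Several genes that separated in both organs lie on chromosome 11, which also carries Myo1c. With Myo1c left out, 3.47% of 173 probe sets within 100 coding genes of it were so separated. The share was 1.80% of 1222 on the rest of chromosome 11 and 1.56% of 15285 on other chromosomes. This split was chosen after the values were seen. Ndel1, a regulator of the dynein motor, read 5.76, 5.78 and 5.84 log2 in KO lungs, against 7.33, 6.67 and 6.86 in WT lungs (1424893_PM_at). Heart values were 3.94, 4.97 and 5.10 in KO mice, against 6.67, 6.59 and 6.55 in WT mice. The groups were well apart in each organ, with KO heart 1602 the lowest array. The change by mouse was -1.54 (SE 0.19), with an adjusted p of 0.261 by limma that became 0.0253 with the mouse as a block. A second Ndel1 probe set, 1422568_PM_at, had -0.24 and overlapped in both organs. In fibroblasts the probe set 1424893_PM_at was again lower, at 4.94 and 5.72 in KO samples against 6.62 and 7.03 in WT samples (-1.50, adjusted p = 0.323 by limma).

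Glod4, a glyoxalase domain gene that lies 10 coding genes after Myo1c, read 8.35, 8.71 and 8.42 log2 in KO lungs, against 9.04, 8.89 and 9.03 in WT lungs. In heart the signal was 8.14, 8.56 and 8.33 in KO mice, against 9.08, 9.14 and 9.01 in WT mice. All KO values lay below all WT values in both organs and in fibroblasts, where they were 8.78 and 8.90 against 9.27 and 9.38. The change by mouse was -0.61 (SE 0.13, adjusted p = 0.411 by limma), and the other Glod4 probe set had -0.45 with overlapping groups. The RIKEN gene 2610507I01Rik, on the same chromosome, had -0.99 (SE 0.15, adjusted p = 0.364) on its leading probe set and -0.49 on its other, and both were separated in the same direction in lungs, heart and fibroblasts.

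The nearest measured genes on either side of Myo1c were not separated in both organs. Inpp5k, a phosphoinositide phosphatase gene directly before Myo1c, had a change of 0.29 (adjusted p = 0.444 by limma), with 0.44 in lungs, 0.14 in heart and 0.40 in fibroblasts. Crk, an adaptor protein gene directly after it, had -0.16 (adjusted p = 0.691). Of the 10 measured genes on each side, 17 of 20 passed the filter. Of these, 2 had an unadjusted p under 0.05 and 1, Glod4, was separated in both organs, beside 11.2% and 1.51% of all probe sets. Xaf1 lies 84 coding genes before Myo1c and Ndel1 213 before it.

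Reading all 3 tissues together, 63 probe sets (0.270%) were separated in the same direction in lungs, heart and fibroblasts, 12 higher (0.0514%) and 51 lower (0.219%) in KO. They made up 17.9% of the 352 separated in both organs, and 51 others (14.5%) were separated in fibroblasts in the opposite direction. This selection and the split by chromosome were chosen after the values were seen. Within fibroblasts alone, where only 2 against 2 samples had to separate, 33.0% of probe sets did. With Myo1c left out, the share separated in all 3 tissues was 1.73% of 173 probe sets within 100 coding genes of Myo1c, 0.491% of 1222 on the rest of chromosome 11 and 0.229% of 15285 on other chromosomes. The 3 probe sets in the nearest class belong to Xaf1 (2 probe sets) and Glod4. With the leading Xaf1 probe set not counted, because WT 1571 lay close below the KO fibroblasts there, 2 of 173 (1.16%) were left. Requiring in addition an unadjusted p under 0.05 in the organs and in fibroblasts left 13 probe sets of 10 genes, 6 of them on chromosome 11 (Myo1c, Xaf1, Ndel1, Glod4, 2610507I01Rik and the histone gene H2aw). This count includes Myo1c itself, and Xaf1 meets it by 1443698_PM_at as well. With Myo1c left out, 110 of the genes compared lie within 100 coding genes of it. On the rest of chromosome 11 lie 797, and on other chromosomes 9867. Whether KO and WT mice differed in the chromosomal segment around Myo1c was not tested.

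**Figure D3:**
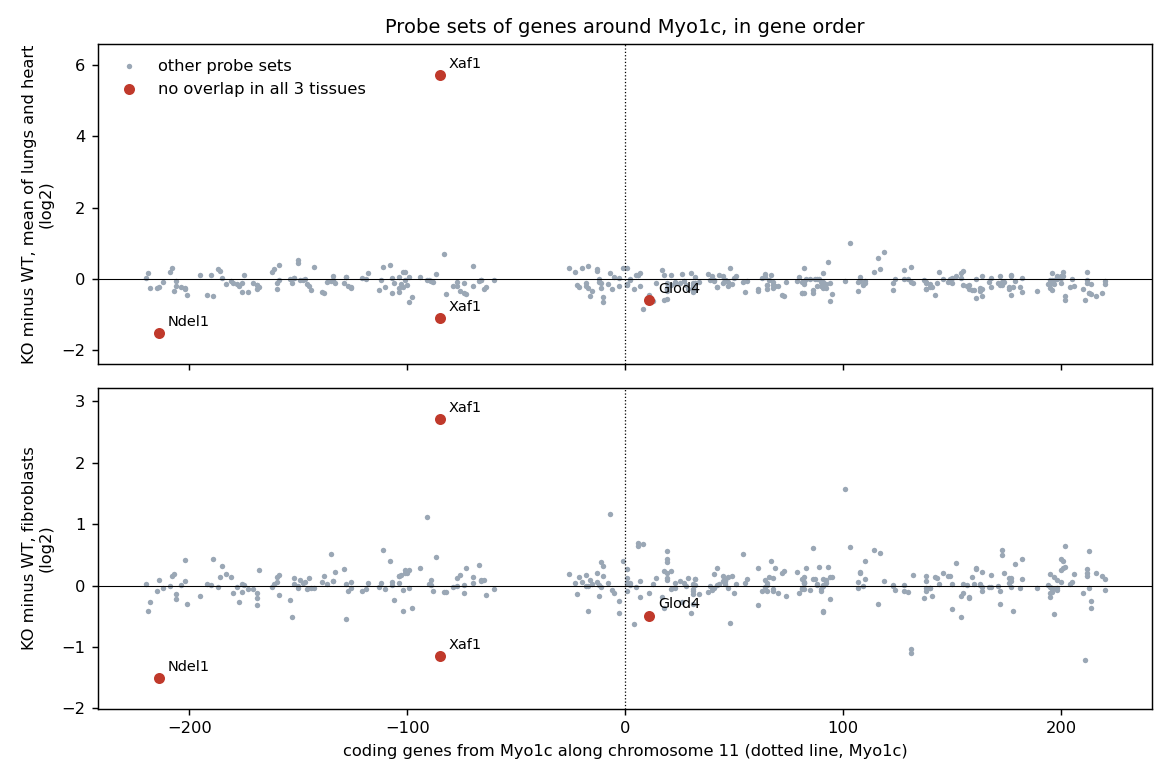
KO minus WT change (y axis, log2) of probe sets of genes up to 220 coding genes from Myo1c (x axis, number of coding genes in chromosome order, negative before Myo1c) for the mean of lungs and heart (upper panel) and for fibroblasts (lower panel). The red points, separated in the same direction in all 3 tissues, are Ndel1, 2 probe sets of Xaf1 with opposite signs, and Glod4, while most other probe sets lie near 0.

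Pisd-ps3, a pseudogene of Pisd, which encodes the mitochondrial phosphatidylserine decarboxylase, gave the largest higher values after Xaf1. Its probe set 1453145_PM_at read 11.44, 11.28 and 11.22 log2 in KO lungs, against 8.02, 9.30 and 7.83 in WT lungs. The heart arrays gave 8.96, 9.03 and 8.85 in KO mice, against 5.69, 7.61 and 6.53 in WT mice. The KO mice lay close together, and WT 1624 was the highest WT mouse in both organs. By mouse the means were 10.13 ± 0.09 in KO and 7.50 ± 0.85 in WT (SD, n = 3 each), a change of 2.63 (SE 0.37), with an adjusted p of 0.261 by limma that became 0.00866 with the mouse as a block. The other Pisd-ps3 probe sets had 2.55 and 3.15, with adjusted p-values of 0.364 and 0.395 by limma that became 0.0253 with the block. Without WT 1624 all 3 of them were called on the mouse means.

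Pisd itself had a change of 0.88 (SE 0.18, adjusted p = 0.411 by limma) on 1435426_PM_s_at and of 0.09 on the other probe set that passed the filter. A parent gene and its pseudogene can share probe sequence, so the values of Pisd and Pisd-ps3 are uncertain as to their source. Sfi1, a centrosomal gene named after its values were seen, had 0.95 on 1435353_PM_a_at (adjusted p = 0.411), with 1.60 in lungs and 0.31 in heart, and its groups overlapped in heart. In fibroblasts Pisd-ps3 read 7.94 and 8.87 in KO samples against 7.79 and 6.56 in WT samples.

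Zfp947, a zinc finger gene, had probe sets of opposite direction, as Xaf1 had. The probe set 1451477_PM_at read 4.45, 4.51 and 4.54 log2 in KO lungs, against 3.53, 3.63 and 3.34 in WT lungs. In heart it read 4.88, 5.51 and 5.88 in KO mice, against 4.25, 4.17 and 3.96 in WT mice. The change by mouse was 1.15 (SE 0.17), with an adjusted p of 0.264 by limma that became 0.0253 with the mouse as a block. The other probe set, 1424784_PM_at, had -0.99 (SE 0.21, adjusted p = 0.411), and its groups did not overlap in lungs, heart or fibroblasts, while those of 1451477_PM_at overlapped in fibroblasts. No direction is therefore given for the gene.

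The remaining named genes had the same adjusted p of 0.411 by limma. Lower in KO were Endod1 (-0.80), Wif1, a secreted Wnt inhibitor gene (-0.95), Tmem119, a transmembrane protein gene (-1.08), Dcun1d1, which acts in cullin neddylation (-0.65), and Crtc3, a coactivator gene of CREB (-0.64). So were Cables1 (-0.55), the ubiquitin-conjugating enzyme gene Ube2e2 (-0.56), Igsf3 (-0.80), Zfp9 (-0.53), the glycosyltransferase gene Galnt4 (-0.58), Pdcd6ip, an ESCRT partner gene (-0.47), and Cnpy4 (-0.60). Mrpl28, of the mitochondrial ribosome, was higher (0.65). These values belong to the leading probe set of each gene. Their other probe sets that passed the filter changed less and overlapped in lungs or in heart. Those had -0.17, -0.13 and -0.06 for Dcun1d1, -0.49, -0.21 and -0.24 for Endod1, and -0.65 and 0.02 for Igsf3. Pdcd6ip had -0.41, -0.32 and -0.22 there, Crtc3 -0.55 and Mrpl28 0.24. Of the 24 genes, 14 had the same sign in fibroblasts and 9 were separated there in the same direction, while 5 were separated in the opposite direction, beside 33.0% of all probe sets separated in fibroblasts in either direction. The 5 were Fkbp5, Tmem119, Mrpl28, Crtc3 and Cables1. Rbp7, a retinoid-binding protein gene named after its values were seen, had a change of 1.19 (SE 0.15, adjusted p = 0.261) with 0.72 in lungs, where its groups overlapped, and 1.66 in heart.

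Fn1, the fibronectin gene, stood for a wider pattern of lower values among extracellular matrix genes. It read 8.89, 9.18 and 9.01 log2 in KO lungs, against 9.23, 9.56 and 9.89 in WT lungs. Heart values were 5.85, 7.43 and 6.21 in KO mice, against 8.87, 7.72 and 8.56 in WT mice. KO and WT did not overlap in either organ, but in lungs KO 1603 lay close below WT 1592. The change by mouse was -1.21 (SE 0.26, adjusted p = 0.411 by limma), with -0.53 in lungs and -1.89 in heart.

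All 41 extracellular matrix genes that passed the filter, of 48 in the list, were lower in KO on the mean of both organs, and 38 were lower in lungs and in heart. The median was -0.54 log2 (-0.32 in lungs and -0.77 in heart), beside -0.12 for all genes. An unadjusted p under 0.05 was reached by 23 of them (56.1%), beside 10.5% of all genes, and 0 were called by limma. Only 1 of the 41 was lower without overlap in both organs, beside 157 of 10814 genes. After Fn1 the smallest p belonged to Timp3, a metalloprotease inhibitor gene, at -0.64 (SE 0.18, adjusted p = 0.411). Others, named after their values were seen, were Mmp14, a membrane-bound metalloprotease gene, at -0.66, the elastic fibre genes Fbln5 and Eln at -0.73 and -0.44, and the proteoglycan gene Fmod at -1.34. The count at an unadjusted p under 0.05 was 13 (31.7%) without KO 1602 and 13 (31.7%) without KO 1586, beside 7.87% and 8.37% of all genes. It was 14 (34.1%) without WT 1624 and 6 (14.6%) without WT 1593, beside 6.17% and 4.18%. In these settings 39 to 41 of the 41 were lower. In fibroblasts the median of the same genes was 0.12.

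The matrix values moved with markers of other cells in the heart samples. The mean of 45 measured matrix genes was 7.57, 7.94 and 7.57 log2 in KO lungs, against 7.85, 8.06 and 8.001 in WT lungs. In heart it was 6.59, 7.39 and 6.81 in KO mice, against 7.45, 7.60 and 8.04 in WT mice. The mean of 7 atrial muscle genes was 5.36, 9.40 and 6.06 in KO hearts, against 9.73, 8.80 and 10.08 in WT hearts. KO hearts 1602 and 1586 were thus low in matrix and in atrial transcripts, while KO 1603 lay near the WT hearts in both. The mean of 9 genes of mesothelium, the lining of the organ surface, was 3.97, 6.02 and 4.002 in KO hearts, against 7.06, 5.33 and 5.36 in WT hearts. In lungs the atrial and mesothelium medians were -0.12 and 0.09. The part of these differences in tissue make-up in the matrix result was not tested, and in whole organs fewer cells of a type and less RNA per cell cannot be told apart.

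**Figure D4:**
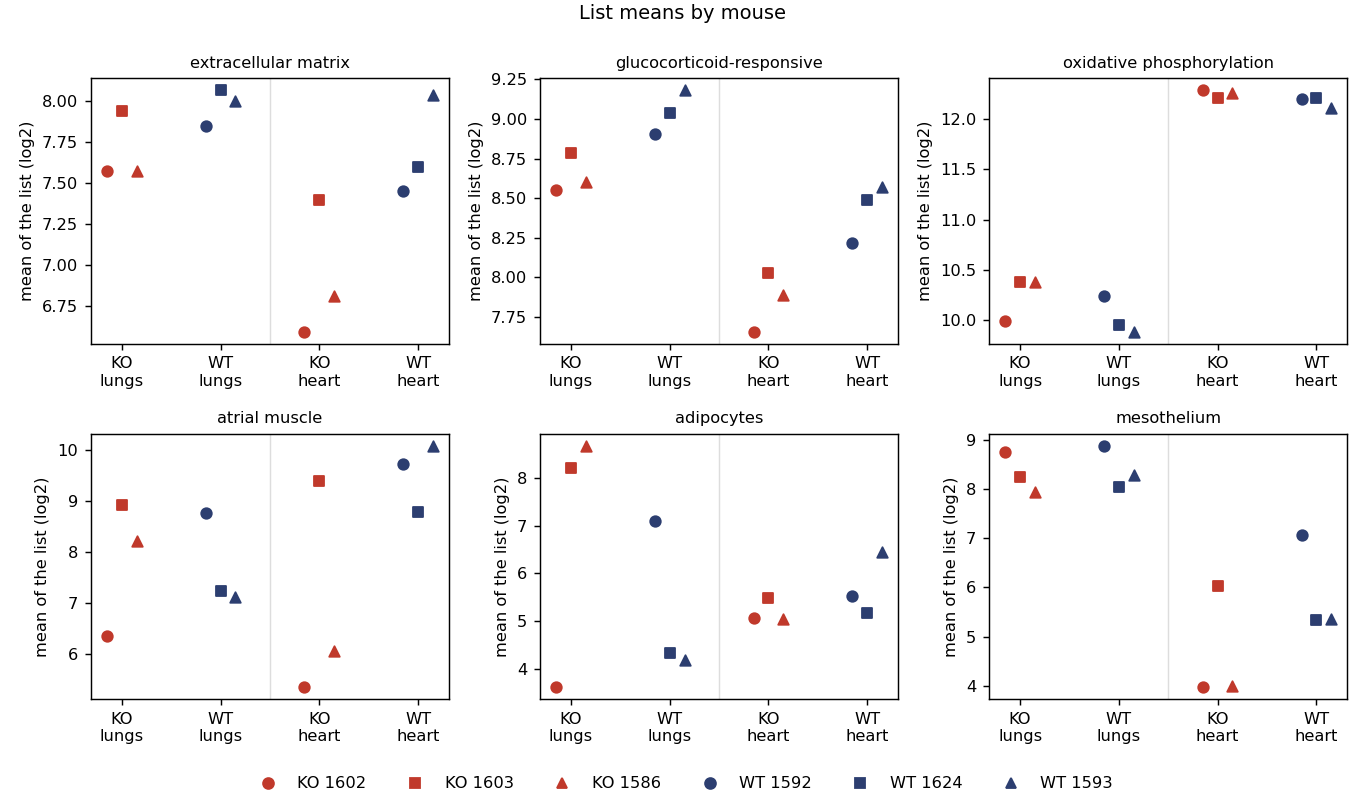
Mean log2 signal of 6 gene lists in each lungs and heart sample, KO (red) left of WT (blue) in each organ, with marker shapes for the mice. KO hearts 1602 and 1586 lie lowest in extracellular matrix, atrial muscle and mesothelium genes, and KO lungs 1603 and 1586 and WT lungs 1592 lie highest in adipocyte and oxidative phosphorylation genes.

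Markers of the stromal and vascular cells of both organs were lower as well. Of 20 endothelial genes, 18 were lower in lungs and in heart, against 50.8% of all genes, with a median of -0.30 log2 (-0.17 after quantile normalization), and 5 (25%) had an unadjusted p under 0.05, against 10.5% of all genes. The 2 with the smallest p were Tek, the angiopoietin receptor gene, at -0.50 and Plvap, of endothelial diaphragms, at -0.60, both with an adjusted p of 0.411 by limma. All 11 fibroblast markers were lower (median -0.39), with Tcf21, a transcription factor gene of fibroblasts, at -0.76 and Vim, the vimentin gene, at -0.51. Of 8 smooth muscle genes 7 were lower (median -0.57), among them the smooth muscle myosin gene Myh11 at -1.03 and the kinase gene Mylk at -0.53. Their mean was 5.61, 7.35 and 6.39 log2 in KO lungs, against 7.27, 6.77 and 6.77 in WT lungs, so the groups overlapped there. In heart it was 6.645, 6.62 and 6.38 in KO mice, against 7.085, 6.82 and 7.34 in WT mice. The lungs median of -0.48 became -0.12 without KO 1602. Of 14 macrophage genes 14 were lower (median -0.20, or -0.06 after quantile normalization and -0.10 without KO 1586). In both organs 8 of them (57.1%) were lower, near the 50.8% of all genes. Of 7 red blood cell genes 5 were lower, a share like that of all genes (7915 of 10814). Their median was -0.38, with -0.04 in lungs and -0.73 in heart, beside -0.08 and -0.145 for all genes. They were led by Isg20, also known as an interferon-stimulated exonuclease gene, at -0.80 and Bpgm, the red cell bisphosphoglycerate mutase gene, at -0.66. None of these genes was called by limma. The endothelial median was -0.18 without the array of KO heart 1602, where 1 of the 20 had an unadjusted p under 0.05.

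Mitochondrial genes stood on the other side of the overall median. Of 70 oxidative phosphorylation genes, 69 were higher in KO on the mean of both organs and 61 were higher in lungs and in heart, against 2899 and 1490 of 10814 genes. Their median was 0.14 log2 (0.20 in lungs and 0.07 in heart), and 0 had an unadjusted p under 0.05. Without KO 1602 14 of the 70 did, all higher, beside 324 higher of 10839 genes. Without WT 1592 4 did, beside 139 higher of 10792 genes. The smallest p belonged to Ndufb2 (0.29, adjusted p = 0.452 by limma) and Ndufb8 (0.34, adjusted p = 0.458), subunits of respiratory complex I. List means were 9.99, 10.38 and 10.38 in KO lungs, against 10.25, 9.95 and 9.89 in WT lungs. They were 12.29, 12.22 and 12.26 in KO hearts, against 12.21, 12.22 and 12.11 in WT hearts, so the groups overlapped in lungs and touched in heart. Genes of the mitochondrial ribosome were higher in 60 of 70 cases, 33 of them in both organs, with Mrps24 at 0.35 and Mrps16 at 0.31. Their median was 0.07, with 0.01 in lungs and 0.16 in heart. Of 18 fatty acid oxidation genes 16 were higher, with a median of 0.23 (0.41 in lungs and 0.08 in heart). The median was 0.12 without KO 1586, 0.13 without WT 1593 and 0.38 without KO 1602. The mean of these genes was 7.96, 8.96 and 9.24 in KO lungs, against 8.70, 8.06 and 8.06 in WT lungs. In heart it averaged 11.325 in KO and 11.343 in WT mice. Acads had 0.42, while Cpt1a, which controls the entry of fatty acids, had the smallest p and a lower value (-0.54).

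The lungs samples with the highest oxidative phosphorylation means were also those with the most cardiomyocyte and adipocyte transcripts. The mean of 18 cardiomyocyte genes was 4.49, 8.34 and 7.48 log2 in KO lungs, against 8.05, 6.37 and 6.36 in WT lungs, so KO 1603, KO 1586 and WT 1592 were the highest. The mean of 9 adipocyte genes was 3.62, 8.21 and 8.67 log2 in KO lungs, against 7.10, 4.33 and 4.18 in WT lungs. In heart it was 5.06, 5.49 and 5.03 in KO mice, against 5.53, 5.16 and 6.45 in WT mice. The adipocyte mean was high in the same 3 lungs samples. The brown fat gene Ucp1 differed from it, at 2.59, 8.02 and 9.43 in KO lungs, against 3.87, 2.86 and 2.77 in WT lungs, and was thus high in KO 1603 and KO 1586 only. The list's median was 1.83 in lungs and -0.08 in heart, and its 2 members with the smallest p were Ucp1 (1.53) and Cidea (1.42), also a brown fat gene. With a mouse left out the list's median lay between 0.33 and 1.64. The part of either cell type in the mitochondrial values was not tested. Of 5 neutrophil genes that passed the filter, 5 were higher in both organs (median 0.53), with S100a9 at 1.56 and Csf3r at 0.39 and 0 called. Over all 9 measured members 8 were higher and the median was 0.21, and with a mouse left out the median of those that passed lay between 0.14 without WT 1624 and 1.21 without KO 1602.

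Genes close to the known functions of NM1 had medians near that of all genes, except that chromatin partners lay somewhat below it. Of 16 genes of RNA polymerase I transcription, NM1 itself included through Myo1c, 10 were lower, with a median of -0.03 log2 (0.06 after quantile normalization, with 6 lower), and after Myo1c the smallest p belonged to Rrn3, the polymerase I initiation factor gene (-0.33, adjusted p = 0.451 by limma). Ribosome biogenesis genes had a median of -0.14 (27 of 35 lower, -0.03 after quantile normalization) and cytosolic ribosomal protein genes one of -0.01 (37 of 63 lower). Of 19 genes for chromatin partners of NM1, 19 were lower and 16 (84.2%) were so in both organs, beside 50.8% of all genes. Their median was -0.20, beside -0.12 for all genes. They were led by the histone deacetylase gene Hdac1 (-0.59) and the helicase gene Ddx21 (-0.37), both uncalled. After quantile normalization 16 of the 19 were lower and 9 were so in both organs. Other unconventional myosins showed no common higher value, with Myo1d at -0.64 and Myo5a at -0.40 as the members with the smallest p, and 0 of 16 were higher in both organs.

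Most stress, immune and growth lists were near the median of all genes or depended on heart. Of 20 immediate early genes 18 were lower, with a median of -0.36 log2 that came to -0.11 in lungs and -0.49 in heart, and Nr4a3 (-0.77) and Fosl2 (-0.42) had the smallest p. Without WT 1593 the median was -0.17 with 15 lower, and without WT 1624 the count at an unadjusted p under 0.05 was 9 in place of 2. Of 17 circadian clock genes 14 were lower (median -0.28, or -0.17 after quantile normalization and -0.12 without KO 1602). The median was -0.17 in lungs and -0.31 in heart, beside -0.08 and -0.145 for all genes. Beside 50.8% of all genes, 12 of the 17 (70.6%) were lower in both organs. With all mice 2 of them (11.8%) were lower at an unadjusted p under 0.05, beside 10.5% of all genes. Without KO 1586 there were 10 (58.8%), beside 8.37%. Nfil3 (0.42) and Bhlhe40 (-0.54), both transcriptional repressors of the clock, were separated in both organs in opposite directions, at adjusted p = 0.411 by limma. Interferon-stimulated genes, listed because Xaf1 is known as one of them, were higher in 9 and lower in 18 of 27 cases. Their median of -0.07 became 0.07 (19 higher and 8 lower) after quantile normalization. It joined opposite signs, 0.16 in lungs and -0.225 in heart, and the heart median was 0.02 without the array of KO heart 1602. Ddx58, a sensor of viral RNA, had the smallest p (-0.41, adjusted p = 0.415 by limma). Of 8 inhibitors of apoptosis and their partners, the binding partner Xiap had -0.21 (adjusted p = 0.525). p53 targets had a median of -0.18 with 17 of 21 lower (-0.06 and 14 lower after quantile normalization, -0.06 without KO 1602), and cell cycle genes one of -0.12 with 15 of 19 lower (-0.04 without WT 1624).

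**Figure D5:**
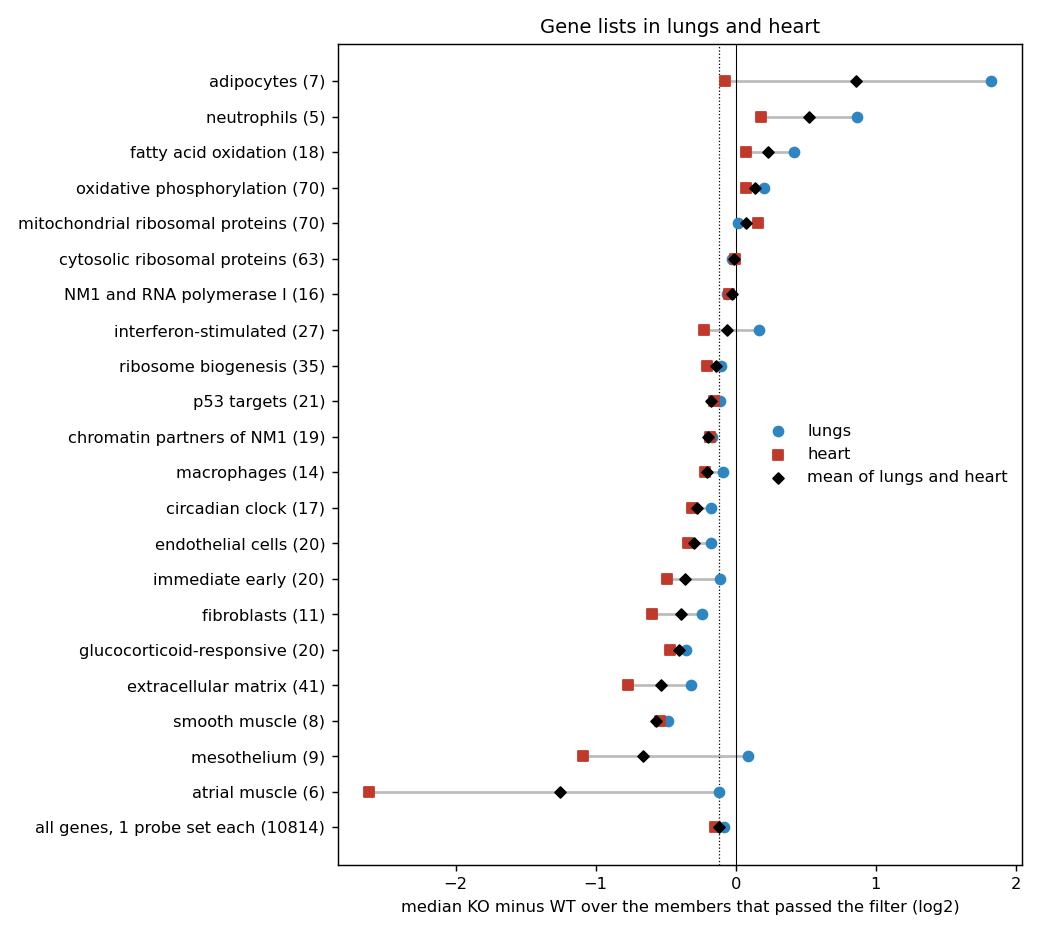
Median KO minus WT change (x axis, log2) of 21 gene lists and of all genes in lungs (blue circles), heart (red squares) and their mean (black diamonds), over the members that passed the filter (number in brackets). The dotted line is the median of all genes at -0.12, extracellular matrix and glucocorticoid-responsive genes lie below it in both organs, and atrial, mesothelium and adipocyte lists differ most between organs.

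The difference of the KO effect between lungs and heart was tested directly in the same mice, with lungs minus heart per mouse. Of 23332 probe sets 0 (0%) were called by limma, and 1565 (6.71%) had an unadjusted p under 0.05. The Xaf1 change was 6.41 in lungs and 5.04 in heart, with an unadjusted p of 0.0024 by limma for the difference. That of 1434914_PM_at was -2.12 and -3.36, with 0.0028. The WT heart and WT lungs signals of Xaf1 and the KO heart signal of 1434914_PM_at lay below the filter value, so these differences in size are uncertain. For Fn1 the unadjusted p of the difference was 0.0187 and for Fam107a 0.883. In fibroblasts, fitted with all 16 arrays, 10 of 21840 probe sets (0.0458%) were called by limma, none of them in the 24 named genes. Of the 23332 probe sets of the organ comparison, 517 (2.22%) had an unadjusted p under 0.05 in fibroblasts.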

How the data were processed

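RNA from lungs, heart and skin fibroblasts of NM1 KO and WT mice was labelled with biotin and measured on Affymetrix 1-colour arrays, per the labels' protocols. The authors deposited 1 log2 value for each probe set on each array. Partek 6.4 was used, per the submitters' processing notes, and the sources used here do not describe background correction, summary or normalization, so a shift between arrays may remain. The number of arrays limits the precision.

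Of 45037 probe sets, 28898 carry 1 gene in the platform annotation, 551 several and 15588 none, and 28689 of the first kind matched a current symbol. Probe sets with a 12-array mean above 3.79 were kept. Lungs and heart arrays were averaged by mouse, and 3 KO and 3 WT mice were compared with limma 3.58.1 in R 4.3.3 (lmFit, eBayes, Benjamini-Hochberg over 23332 probe sets). Fibroblasts were tested in a limma fit of all 16 arrays. The fit was tested on simulated data.

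Named genes were all Myo1c probe sets, the calls, the genes of smallest p whose mice did not overlap in either organ, up to 24 genes, the 2 members of smallest p in each list and the neighbours of Myo1c. Members and lists were chosen with earlier results of these data known. The same mouse number marks the same animal, so organs are paired, although the deviations of a mouse's 2 organs correlated only at 0.0369 to 0.178. Alternatives were other scalings, filters, fits, the mouse as a block and each mouse left out. Setting aside genes with opposing probe sets, and not counting the leading Xaf1 probe set near Myo1c, were added after seeing the data.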

Additional observations from a re-analysis of the deposited data

How the results depend on the processing

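The 2 calls were the same in number under quantile normalization, median centring, no filter and a filter in each organ. With the mouse as a replicate block there were 12 calls, and also 12 over 12 arrays without a block, 18 with the spread of all 16 arrays, 4 with a trended prior, 19 with array weights and 6 with the block but without the array of KO heart 1602. With the fit itself run on 1 probe set per gene there were 0 calls (1300 at an unadjusted p under 0.05), since that choice leaves out the called probe sets. Leaving out each mouse gave 2 to 5 calls. It gave from 1110 (without WT 1593) to 3459 (without KO 1603) probe sets at an unadjusted p under 0.05. The share with the same sign lay between 56.2% after quantile normalization and 64.6% with 1 probe set per gene. Myo1c lay between -1.17 and -0.95 with a mouse left out. In fibroblasts 10 calls became 0 in a fit of those 4 arrays alone (965 at an unadjusted p under 0.05) and 12 to 88 with a sample left out, with 88 without WT 1571 and 55 without WT 1623. The lungs against heart difference had 0 calls in all 11 settings run. Of 1676 values of 101 named probe sets under alternatives, 48 became significant, 0 lost significance and 5 reversed. Those were Mybpc3 (-0.04 without KO 1603, 0.80 without KO 1602), Actc1 (0.36 without KO 1602, 0.03 without WT 1592, -0.67 without KO 1603 and 0.48 with array weights) and Akap5 (-0.05 with array weights), and the cause was not tested.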

Other observations

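The most negative change of any annotated gene belonged to Gdpd3, a lipid-modifying phosphodiesterase gene, at -3.01 (SE 1.11, adjusted p = 0.419 by limma), with -2.88 in lungs, -3.15 in heart and -0.02 in fibroblasts. It was singled out after its values were seen.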
